A study of Arabidopsis thaliana with 74 samples.

Results

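The 45S ribosomal DNA (rDNA) was followed in small RNA libraries of Arabidopsis rosettes. Its members are the 200-bp windows of the CHH table, which holds regions with at least 10 cytosines in the CHH context, that lie on chromosome 2 from 1 to 12000 or on chromosome 3 from 14190000 to 14210000 (TAIR10). These are 600 of 2379342 windows at all 50-bp steps. Neighbouring steps share reads, so counts below come from the non-overlapping windows unless another step is named. Of these windows, 55 on chromosome 2 and 96 on chromosome 3 are rDNA windows, of 594835 in all. The windows were chosen by position, not by any measured value.

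Libraries came from 36 epiHybrids, 36 epiRILs and 2 msCol lines, 74 in all. An epiRIL is a line in the Col background that descends from a ddm1-2 mutant founder and carries stretches of hypomethylated DNA in its otherwise wild-type genome. msCol is a male-sterile Col line with a mutation in MS1 and a segment of Ler origin around that gene on chromosome 5, and it was the mother of every cross. An epiHybrid is the F1 of msCol and 1 epiRIL, so that a family is an epiHybrid and its father of the same number. The tissue was the aerial rosette 27 days after sowing in all groups, pooled over plants of 3 cultivations, so each line is represented by 1 library. The lines are not replicates of each other: p-values over families measure the spread between lines, and the 2 msCol libraries, msCol12 and msCol16, are the only repeat of a genotype. By the paper's methods, the msCol plants grown beside the hybrids were progeny of male-sterile plants pollinated by heterozygous siblings. The libraries are thus not of the mother plants of the crosses themselves. The sources used here do not say which of both msCol lines mothered each cross, so the mean of the 2 libraries stands for the mother.

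Each 45S unit encodes the 18S, 5.8S and 25S ribosomal RNAs in that order, with internal transcribed spacers (ITS) between them and an intergenic spacer between units. RNA polymerase I transcribes the units from a gene promoter, an external transcribed spacer lies between this promoter and 18S, and further copies of the promoter lie upstream in the intergenic spacer beside arrays of short repeats cut by the enzyme SalI. The segment called spacer before 18S here covers all sequence before the 18S gene, transcribed or not. In Arabidopsis the units stand in long tandem arrays, the nucleolus organizer regions, at the ends of chromosomes 2 and 4. Part of them is silenced by DNA methylation and histone marks, with roles for small interfering RNAs and the DNA methylation machinery. Fragments of the abundant mature rRNAs are also caught in small RNA libraries, and the counts used here do not separate read lengths, so that siRNAs and rRNA fragments cannot be told apart.

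The assembly holds only a few of these units. On chromosome 2 the first 1000 bases are unknown, and a copy follows from 1001 to 9910, with the 18S gene AT2G01010 at 3706 to 5513 and the 5.8S gene AT2G01020 at 5782 to 5945. On chromosome 3 a copy lies from 14194948 to 14203885, with the 18S gene AT3G41768 at 14197677 to 14199484 and the 5.8S gene AT3G41979 at 14199753 to 14199916. The 25S gene is not annotated as an rRNA gene in the reference, and the stretch between the 5.8S gene and the end of the copy, which holds the second spacer and the 25S sequence, is called the 25S side. Before the chromosome 3 copy lies a partial copy from 14191660 to 14194947, whose stretch from 14192869 to 14193476 matches the end of the 25S side, and after each copy a piece of spacer follows, up to 10372 and 14205200. A longer stretch of the partial copy, from 14192869 to 14194792, matches that from 14203278 to 14205200 at 99.896% identity over 1924 aligned bases. This match also covers the spacer after the chromosome 3 copy. The rest of both regions is flanking sequence. Windows were assigned to these 16 segments by their centre, so a border window can hold sequence of both neighbours.

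The copies are nearly the same sequence: over 8938 aligned bases they are 99.083% identical, with 54 mismatches and 9 gap openings. The 2 annotated 5.8S genes, of 164 bases each, do not differ at any position. To show how the copies differ, 4 pairs of sites are shown, each from a chromosome 2 window and its chromosome 3 match with the only base that differs within the window in capitals (RefSeq TAIR10.1, plus strand, 5′ to 3′).
chr2:4174-4214, 18S gene: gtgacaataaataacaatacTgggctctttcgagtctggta
chr3:14198145-14198185, 18S gene: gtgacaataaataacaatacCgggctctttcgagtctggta
chr2:5012-5052, 18S gene: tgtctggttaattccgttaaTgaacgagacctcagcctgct
chr3:14198983-14199023, 18S gene: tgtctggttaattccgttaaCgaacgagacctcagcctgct
chr2:7069-7109, 25S side: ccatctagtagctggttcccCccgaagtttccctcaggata
chr3:14201040-14201080, 25S side: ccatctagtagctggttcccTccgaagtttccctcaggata
chr2:8127-8167, 25S side: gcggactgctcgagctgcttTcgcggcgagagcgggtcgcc
chr3:14202098-14202138, 25S side: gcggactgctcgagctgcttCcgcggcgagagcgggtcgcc

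Sequences around a promoter motif are shown because the most abundant window before 18S that does not reach into the gene holds it in each copy. The letters TATATAGGG, found at the start site of Arabidopsis rRNA genes in the gene promoter and in its spacer copies, were searched on both strands. They occurred at 1 place on chromosome 2 and 3 on chromosome 3, in 4 of the rDNA windows (2.65%), against 0.162% of all windows. The first match on chromosome 2 lies 1840 bp before the 18S gene, and the chromosome 3 copy has its match 1844 bp before 18S. The 89 bases around these 2 matches do not differ at any position. The other matches, in the partial copy and in the spacer after the chromosome 3 copy, do not differ from each other either, but differ from the first pair at 25 of 89 positions.
chr2:1826-1914, spacer before 18S: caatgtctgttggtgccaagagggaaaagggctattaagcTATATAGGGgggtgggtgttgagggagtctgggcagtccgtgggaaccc
chr3:14194205-14194293, partial copy: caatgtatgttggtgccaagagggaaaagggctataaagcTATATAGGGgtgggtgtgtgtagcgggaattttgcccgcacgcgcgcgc
The SalI site GTCGAC, read the same on both strands, occurred 20 times in the chromosome 2 region and 98 times in the chromosome 3 region. It was in 26 of the rDNA windows (17.2%), against 1.54% of all windows. The most abundant window of each copy, both on the 25S side, and a window of SalI repeats in which single families stood apart are shown in full because the results below refer to them (SalI sites in capitals).
chr2:9401-9600, 25S side: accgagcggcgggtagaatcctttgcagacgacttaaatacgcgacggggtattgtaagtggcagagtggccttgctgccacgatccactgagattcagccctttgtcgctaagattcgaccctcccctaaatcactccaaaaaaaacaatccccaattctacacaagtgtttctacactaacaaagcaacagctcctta
chr3:14202001-14202200, 25S side: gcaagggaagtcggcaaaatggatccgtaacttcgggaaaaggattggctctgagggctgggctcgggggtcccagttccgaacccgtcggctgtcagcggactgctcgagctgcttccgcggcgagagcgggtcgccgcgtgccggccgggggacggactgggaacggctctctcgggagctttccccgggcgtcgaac
chr2:1001-1200, spacer before 18S: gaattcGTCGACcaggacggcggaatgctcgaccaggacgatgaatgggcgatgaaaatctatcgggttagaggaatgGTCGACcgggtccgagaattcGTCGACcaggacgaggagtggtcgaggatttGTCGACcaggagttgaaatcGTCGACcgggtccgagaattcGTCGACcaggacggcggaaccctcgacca

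The libraries held between 20995764 and 27084303 counts in non-overlapping CHH windows, of which between 5126183 and 10119827 lay in the rDNA, so counting error is small beside the differences between lines. In 2 families the labels went against the counts around MS1. Over the 515 windows between 6072401 and 8717200 on chromosome 5 that passed the test as higher in epiRILs than in msCol, the epiRIL had a higher level than its epiHybrid in 34 of the other 34 families. In family 12 the library labelled epiHybrid had 6070 CPM (counts per 1000000 counts in all non-overlapping CHH windows of the library) and the library labelled epiRIL 4836 CPM. In family 568 these levels were 7486 and 5373 CPM, while msCol12 and msCol16 had 1073 and 1092 CPM. Both families were kept under their labels, and results that move without them are given both ways. The msCol libraries also differed from each other, msCol16 having 1.35 times the rDNA share of msCol12, so that results against msCol are given with and without each of them.

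The first question was how much of the small RNA of each line lay in the rDNA. The rDNA share, the percentage of a library's counts that fell in the rDNA windows, was similar in epiHybrids and epiRILs and higher in the msCol libraries. The epiHybrids had 26.7% ± 2.45 (SD, n = 36), with a lowest value of 22.7% in family 219, a median of 26.4% and a highest value of 32.5% in family 454. The epiRILs had 27.0% ± 1.97 (SD, n = 36), with 23.6%, 26.6% and 31.1% as lowest, median and highest. msCol12 had 31.3% and msCol16 42.2%. EpiHybrid and epiRIL libraries overlapped over nearly their whole range, whereas msCol12 lay above 36 of 36 epiRILs and 35 of 36 epiHybrids, and msCol16 above all of both.

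Within families the epiHybrid was lower than its father in 20 and higher in 16. The mean difference in log2 share was −0.02 (SD 0.14 over families, two-sided sign-flip permutation test p = 0.46, adjusted p = 0.46 over the 4 comparisons of the share). Shares of epiRILs were lower than those of msCol by 0.43 on the log2 scale, which is 1.35-fold higher in msCol (two-sided exact permutation test of 36 against 2, p = 0.00142, the smallest this design allows, adjusted p = 0.00284). Shares of epiHybrids were lower than those of msCol by 0.45, or 1.37-fold (exact permutation p = 0.00284, adjusted p = 0.00379). Without msCol16 the difference of epiRILs to msCol was −0.22 (exact permutation p = 0.027, the smallest that 36 against 1 allows, adjusted p = 0.0541), and that of epiHybrids −0.23 (adjusted p = 0.108). The plot of shares by library shows both msCol libraries above the body of the other groups for all rDNA windows, and msCol12 alone above it for the spacer.

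**Figure D1:**
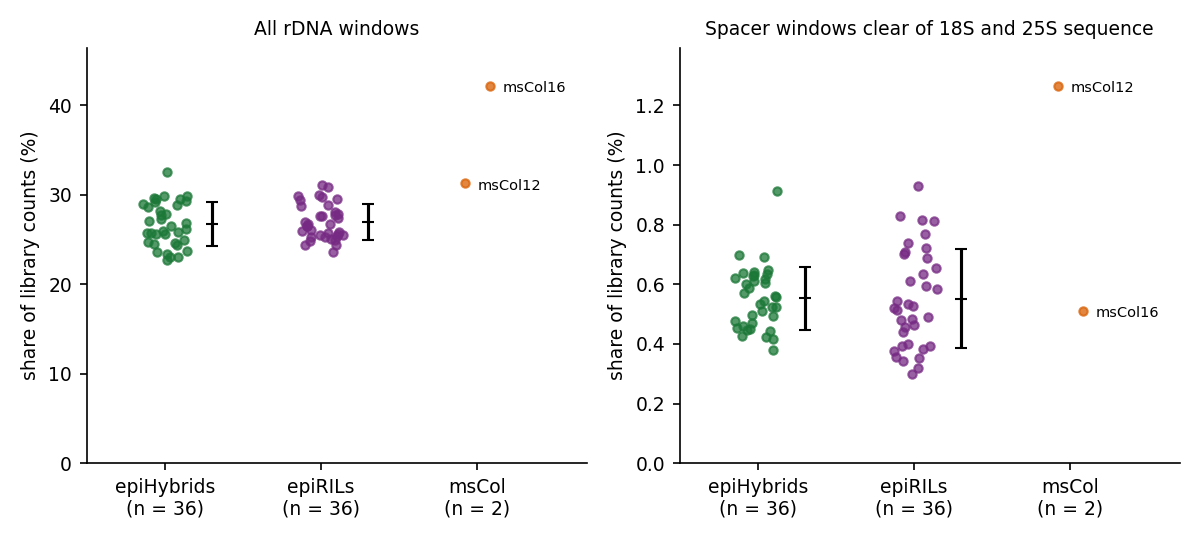
Share of each library's counts in all rDNA windows (left) and in the 48 spacer and partial-copy windows clear of 18S and 25S sequence (right), both as a percentage on axes that start at 0. Each point is 1 library (36 epiHybrids, 36 epiRILs, 2 msCol) and bars give mean ± SD over libraries. For all windows msCol16 (42.2%) and msCol12 (31.3%) lie at the top, and for the spacer only msCol12 (1.27%) does.

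Against the mid-parent value (MPV), the mean of the father's share and the mean msCol share of 36.7%, the divergence of an epiHybrid was its difference from the MPV as a percentage of the MPV. It averaged −16.2% ± 7.37 (SD, n = 36) and was negative in 36 of 36 families (two-sided sign-flip permutation p = 1e-05, the smallest that 100000 resamples give, adjusted p = 4e-05). It was −22.8% without msCol12 and −8.35% without msCol16. The msCol value is common to all families, so its error is not in this test. In 20 of 36 families the epiHybrid lay below its father and below both msCol libraries.

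Within the rDNA, most counts lay in the transcribed region, and above all on its 25S side. The 25S side of the chromosome 3 copy held 38.1% of all rDNA counts and that of the chromosome 2 copy 19.8%. The 18S genes, the RNA of the small ribosomal subunit, held 14.7% on chromosome 3 and 8.28% on chromosome 2. The 5.8S genes held 1.52% and 5.12%, and the windows assigned to the first internal spacer (ITS1) 5.20% and 3.55% on chromosomes 3 and 2. Each window assigned to ITS1 also holds sequence of 18S or 5.8S. A window wholly inside the chromosome 3 ITS1, at 14199551 to 14199750 on another 50-bp step, had a mean of 16536 counts per library. The windows assigned there, at 14199401 and 14199601, had 175437 and 184843, so the ITS1 and 5.8S values are not of these sequences alone. All 53 windows of the spacers and the partial copy together held a median of 3.7% of rDNA counts in epiHybrids and 3.62% in epiRILs, and the 3 flanks at most 0.0420% each. Of the 55 and 96 windows together, 138 passed the minimum of a mean of 2 counts per library that was set for tests.

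The most abundant window was that at 14202001 on the chromosome 3 25S side, with 13319, 17691 and 21171 CPM as lowest, median and highest in epiHybrids, 13731, 17001 and 21510 CPM in epiRILs, 15356 CPM in msCol12 and 27973 CPM in msCol16. Only msCol16 stood apart there. The most abundant chromosome 2 window, at 9401 near the end of the 25S side, had 11219, 17281 and 30182 CPM in epiHybrids, 11786, 15793 and 25037 CPM in epiRILs, 28836 CPM in msCol12 and 35508 CPM in msCol16. Here both msCol libraries lay above all epiRILs. The window at 5801 to 6000, over the chromosome 2 5.8S gene, followed with 10213, 13187 and 26826 CPM in epiHybrids and 10497, 12604 and 19554 CPM in epiRILs.

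Among the spacer windows before 18S that do not reach into the gene, the highest of each copy was the one with the TATATAGGG match nearest to the gene. The window at 1801 to 2000, which holds the chromosome 2 sequence shown above, had 719, 1266 and 3601 CPM as lowest, median and highest in epiHybrids and 562, 1188 and 2511 CPM in epiRILs. Its chromosome 3 counterpart at 14195801 had medians of 1227 and 1177 CPM. The windows with the other form of the sequence, at 14194201 in the partial copy and at 14204601 after the chromosome 3 copy, had medians of 66.2 and 66.2 CPM in epiHybrids and 63.0 and 62.3 CPM in epiRILs. The plot of levels along the unit shows this peak before 18S in both copies, a rise at the 18S start and a fall at the end of the 25S side.

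**Figure D2:**
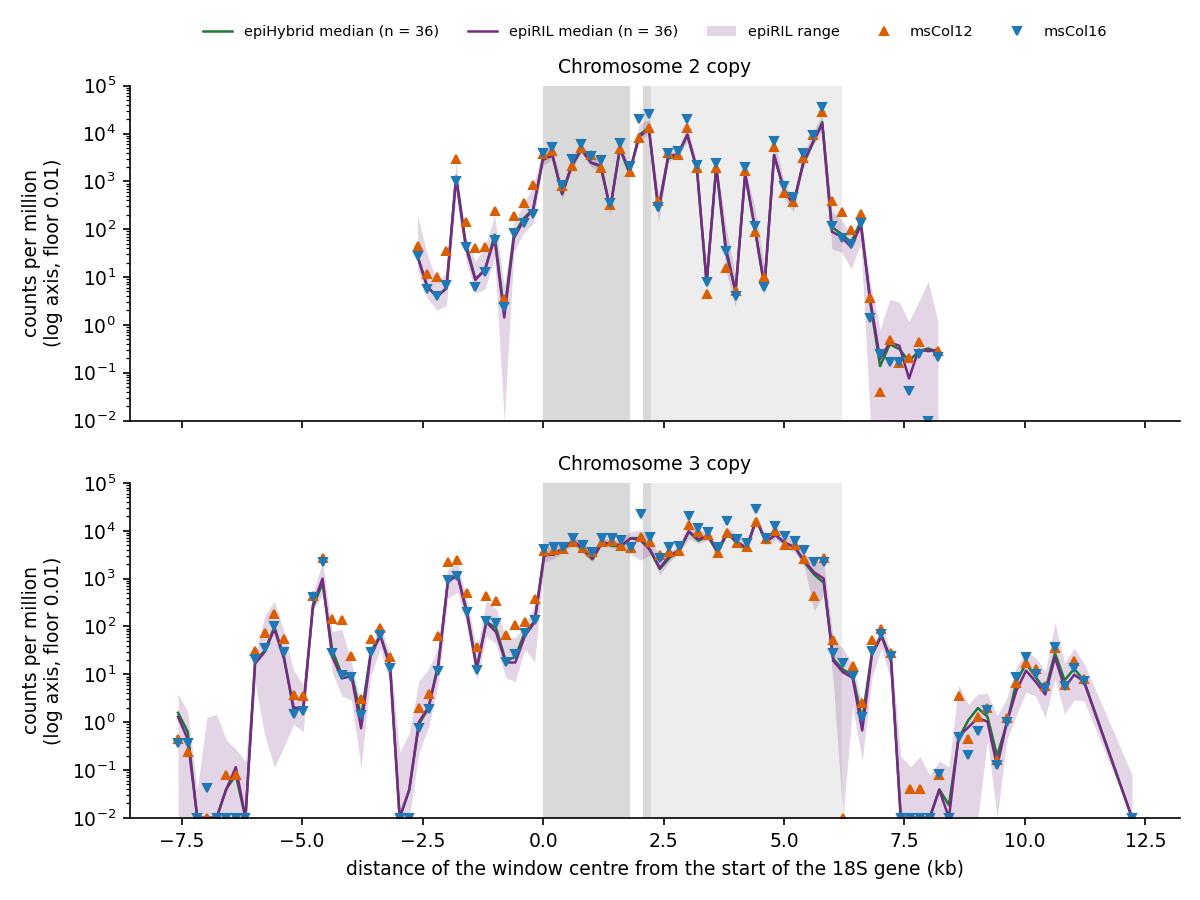
CPM (log axis, values under 0.01 drawn at 0.01) in non-overlapping 200-bp windows against the distance of the window centre from the start of the 18S gene, for the chromosome 2 copy (top) and the chromosome 3 copy (bottom). Lines are medians of 36 epiHybrids and of 36 epiRILs, the band is the epiRIL range, triangles are the msCol libraries, and grey marks the 18S gene, the 5.8S gene (dark) and the 25S side (light). Medians of epiHybrids and epiRILs nearly coincide, and msCol12 lies above the band at many spacer windows.

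At the bounds of the regions the levels were low on both sides. The last chromosome 2 window inside had a median of 0.304 CPM in epiRILs and the next one outside 1.66 CPM. On chromosome 3 the first window inside had 1.29 CPM and its outer neighbour 6.59 CPM, and at the other end these were 0 and 3.99 CPM.

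The 2 msCol libraries differed from each other in opposite directions along the unit. The window at 5601 to 5800 on chromosome 2 is assigned to ITS1 but reaches into the 5.8S gene, which starts at 5782. There msCol12 had 8183 CPM, within the epiRIL range of 6395 to 16071 CPM (median 8474), and msCol16 had 20392 CPM, above all epiRILs. At 14199601, which spans the ITS1 border with 5.8S on chromosome 3, the values were 7573 CPM in msCol12 and 21959 CPM in msCol16, against an epiRIL range of 2439 to 10390 CPM. In the 48 spacer and partial-copy windows clear of 18S and 25S sequence the order was the opposite. There msCol12 had 1.27% of its library and msCol16 0.511%, while the epiRILs had 0.299%, 0.524% and 0.93% and the epiHybrids 0.381%, 0.552% and 0.912% as lowest, median and highest. Only msCol12 lay outside the other groups, and the difference of this spacer share between epiRILs and msCol did not pass the test (log2 difference −0.61, exact permutation p = 0.0754, adjusted p = 0.101). What set the msCol libraries apart from each other was not tested.

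The split of reads between the 2 copies varied along the unit. Windows of the copies were matched in 44 pairs, whose chromosome 3 partner is shifted by 17 to 21 bp because both lie on the same 50-bp grid. Of these pairs, 21 had no differing base and 23 had at least 1. Among the 21 without a difference, 11 held 40% to 60% of the pair's counts on chromosome 2, and among the 23 with a difference, 1 did. Shares under 1% on chromosome 2 occurred in 5 of the 23 and in 0 of the 21, and all 5 lay on the 25S side. Reads that match both copies cannot be assigned to 1 of them by sequence, so the counts of 1 copy are no measure of transcription from it.

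At 7001 to 7200, where the copies differ only by C89T (the chromosome 2 base first, then the position from 1 at the window's start, then the chromosome 3 base), chromosome 2 held 0.111% of the counts. At 8001, with T147C, it held 0.631%. At 5001 and 4001 in the 18S gene, with T32C and T194C, it held 3.88% and 10.1%. These 4 pairs are the sequences shown above. They were chosen for the lowest chromosome 2 shares among the single-base windows of 18S and of the 25S side. In each of them most counts were on the chromosome 3 window. The other 5 windows with a single differing base ranged from 5.74% to 78.1%, so this was not so at every such site. A window without any differing base could also be uneven: at 9401, the most abundant chromosome 2 window, chromosome 2 held 93.0%, and of the 10 such pairs outside 40% to 60%, 9 stayed outside when the neighbouring chromosome 3 windows were used. The plot of the split by position shows the pairs near 0% clustered in the middle of the 25S side.

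**Figure D3:**
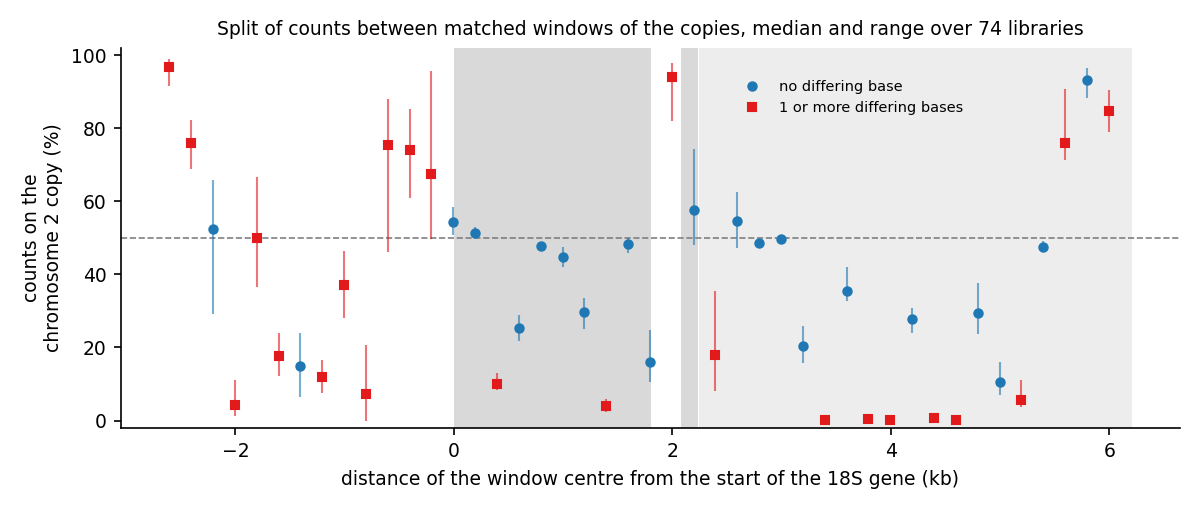
Percentage of the counts of a matched window pair that fell on chromosome 2, against the distance from the start of the 18S gene. Points are medians over 74 libraries and lines the range, circles are the 21 pairs with no differing base, squares the 23 pairs with 1 or more, and the dashed line marks 50%. The 5 pairs under 1% are all squares on the 25S side, and the circle at 9401 lies at 93.0%.

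Over all rDNA windows the chromosome 2 region held 38.8% ± 1.96 of rDNA counts in epiHybrids (SD, n = 36), 38.3% ± 1.18 in epiRILs (SD, n = 36), 41.4% in msCol12 and 41.5% in msCol16. The mean difference of epiHybrids to their fathers was 0.529 percentage points (sign-flip permutation p = 0.139, adjusted p = 0.278, higher in 20 of 36 families). The epiHybrid of family 102 stood apart with 47.2%, the next highest having 42.0%, and it also had the highest epiHybrid level at 5601 in ITS1, 24528 CPM. The part of rDNA counts in spacer and partial-copy windows differed by 0.0933 percentage points (p = 0.49 by the same permutation test, adjusted p = 0.49, higher in 21 of 36 families).

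The comparison of epiHybrids with their fathers was then made segment by segment, as shares of the library. The spacer after the unit was higher in epiHybrids in both copies, and so was the flank after the chromosome 3 copy. The transcribed segments did not pass the test. No 24-base word in the windows of the chromosome 3 spacer after the unit occurs once in the genome, so its reads cannot be placed there by sequence. The chromosome 2 spacer after the unit had 114, 193 and 303 CPM as lowest, median and highest in epiHybrids and 65.8, 164 and 256 CPM in epiRILs. The groups overlapped widely, but the epiHybrid was higher than its father in 29 of 36 families, by 1.25-fold on average (sign-flip permutation p = 5e-05, adjusted p = 0.0008 over 16 segments). The spacer after the chromosome 3 copy was higher 1.13-fold (permutation test, adjusted p = 0.0072, 25 of 36 families) and the flank after it 1.16-fold (adjusted p = 0.0179, 24 of 36 families). When families were not used as pairs, only the first of these passed (adjusted p of 0.0879 and 0.404 for the other ones by permutation of 36 against 36). With shares taken of the TMM effective library size, 6 segments passed, the added ones being lower in epiHybrids. Without families 12 and 568 the chromosome 2 flank also passed, with a log2 difference of −0.34 (permutation test, adjusted p = 0.0259).

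Single windows were tested with edgeR's quasi-likelihood test with the family as a block, on TMM-scaled counts with Benjamini-Hochberg adjustment over all 174548 tested windows. Of the 138 rDNA windows, 18 passed at 0.05 (13.0%, against 8.02% of all tested windows). In 10 of them the epiHybrids were higher (7.25%, against 4.46%) and in 8 lower (5.8%, against 3.56%). This balance depended on the scaling, with 7 higher and 13 lower under median-of-ratios size factors and 15 higher and 6 lower under library size alone. Without the family block 5 windows passed, 1 higher and 4 lower, and without families 12 and 568 the number was 24, which included these 18. The median log2 fold change was −0.02 over the rDNA windows and 0.05 over all windows. The windows that were higher lay in the spacer after the units (2 of 2 tested on chromosome 2 and 3 of 6 on chromosome 3), in the partial copy (2 of 15) and in the flank after the chromosome 3 copy (3 of 14). Those that were lower lay on the 25S side (3 of 20 on chromosome 2 and 3 of 19 on chromosome 3), in the chromosome 2 18S gene (1 of 9) and in the partial copy (1 of 15). Segments that match each other can count the same reads, so the called windows are not all separate results. For example, the higher windows at 14193801 in the partial copy and 14204201 after the chromosome 3 copy lie in stretches that match at 99.896% identity. Their log2 fold changes were 0.55 and 0.72.

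The window at 10001 in the chromosome 2 spacer after the unit had the highest share of unique sequence of all rDNA windows, 83.1% of its 24-base words occurring once in the genome, against 0% at 5201 in 18S and at 5801 over 5.8S. It had 29.2, 53.3 and 71.7 CPM as lowest, median and highest in epiHybrids and 14.8, 42.0 and 73.5 CPM in epiRILs. The epiHybrid was higher in 29 of 36 families, with a log2 fold change of 0.34 ± 0.07 (SE, edgeR quasi-likelihood test, adjusted p = 0.000703). At 14204201 after the chromosome 3 copy, in a window with a SalI site, levels were low, with medians of 1.11 and 0.669 CPM. The log2 fold change there was 0.72 ± 0.15 (SE), higher in 33 of 36 families (edgeR, adjusted p = 0.00115). The flank window at 14207601 had a log2 fold change of 0.36 ± 0.09 (SE), higher in 25 of 36 families (edgeR, adjusted p = 0.0116).

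Among the windows that fell, that at 14192801 at the start of the 25S match of the partial copy had 203, 251 and 443 CPM in epiHybrids and 212, 284 and 500 CPM in epiRILs. Its log2 fold change was −0.21 ± 0.05 (SE), lower in 29 of 36 families (edgeR, adjusted p = 0.00276). The window at 5401 over the end of the chromosome 2 18S gene fell by 0.18 on the log2 scale (SE 0.05, lower in 28 of 36 families, edgeR adjusted p = 0.00993). At 8201 on the chromosome 2 25S side, where the copies differ and few reads are counted, medians were 5.97 and 6.78 CPM, with a log2 fold change of −0.3 ± 0.08 (SE, lower in 24 of 36 families, edgeR adjusted p = 0.012). The changes in abundant windows were small: the largest among the called windows over 1000 CPM was −0.18. The plot of log2 fold changes along the unit shows a shallow dip over the transcribed region and higher values in the spacer after it. In the flank beyond, the median was 0.23 on chromosome 3 but −0.24 on chromosome 2.

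**Figure D4:**
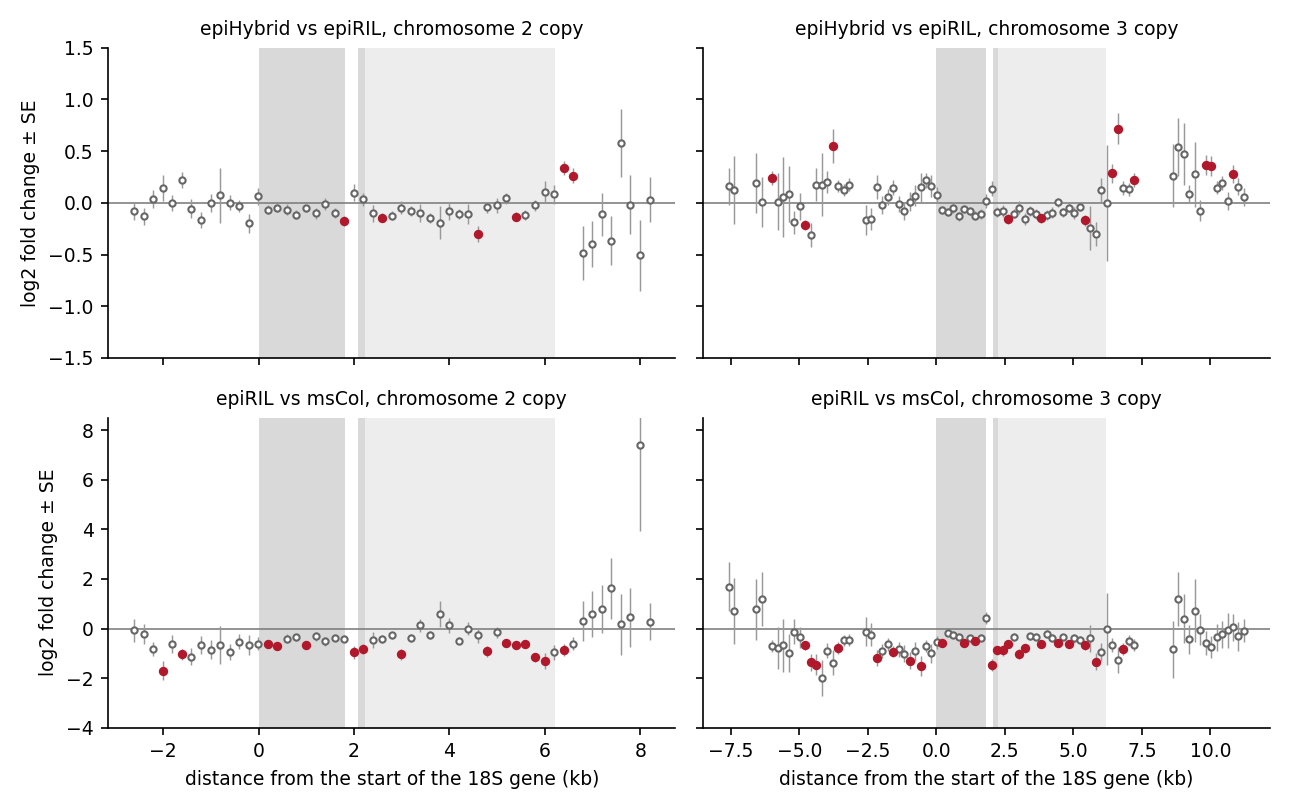
Log2 fold change ± SE by window from edgeR, against the distance from the start of the 18S gene, for epiHybrids against epiRILs (top) and epiRILs against msCol (bottom) and for the chromosome 2 copy (left) and the chromosome 3 copy (right). Filled points passed the adjusted p of 0.05 and grey marks the 18S gene, the 5.8S gene (dark) and the 25S side (light). Of 138 windows 18 passed in the top row, in both directions, and 38 in the bottom row, all of them lower in epiRILs, and 1 error bar in the lower left panel runs past the axis.

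Against msCol the window fits used all 74 libraries, since 2 libraries give little information on their own spread, which was estimated over all groups. Of the 138 rDNA windows, 38 passed (27.5%, against 1.92% of all 174612 tested windows), and in 38 of 38 the epiRILs were lower, while 0 were higher (0.856% and 1.06% of all windows passed as lower and higher). The median log2 fold change over rDNA windows was −0.56, and 0.03 over all windows. Over the rDNA windows it was −0.24 without msCol16, −0.6 without msCol12 and −0.37 with scaling by library size alone. The windows lower in epiRILs were spread over the unit: on chromosomes 2 and 3 these were 7 of 20 and 9 of 19 windows on the 25S side, 3 of 9 and 3 of 9 in 18S, 1 of 1 and 1 of 2 in ITS1, and the 1 window over each 5.8S gene. In the spacers before 18S 2 of 14 and 4 of 13 passed, after the units 1 of 2 and 1 of 6, and in the partial copy 4 of 15, while no flank window passed. Matching windows can count the same reads, so the 38 are not all separate results. Log2 fold changes were −1.034 and −1.026 at 6601 and 14200601, and −1.349 and −1.339 at 14193001 and 14203401. Without msCol16 the log2 fold change at 5601 in ITS1 and at 5801 over 5.8S of chromosome 2 turned to 0.25 and 0.12, neither past the threshold (edgeR, adjusted p = 0.915 and 0.957). With scaling by library size alone, 21 rDNA windows passed, and the median of all windows moved from 0.03 to 0.14.

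The window at 9401 on the chromosome 2 25S side, whose levels are given above, lay below both msCol libraries in 36 of 36 epiRILs. Its log2 fold change was −1.15 ± 0.18 (SE, edgeR quasi-likelihood test, adjusted p = 7.97e-06). At 14199601, over the border of ITS1 and 5.8S, it was −1.46 ± 0.24 (SE, 26 of 36 epiRILs below both msCol libraries, edgeR adjusted p = 2.83e-05). The epiRIL median there of 6309 CPM was close to the 7573 CPM of msCol12. At 14199801 over the chromosome 3 5.8S gene, epiRILs had 3165, 3999 and 6196 CPM, msCol12 5817 CPM and msCol16 7353 CPM, a log2 fold change of −0.88 ± 0.18 (SE, 35 of 36 epiRILs below both, edgeR adjusted p = 0.00101). Many of these calls were lost without msCol16: then 10 rDNA windows passed, 8 of which were among the 38, and 9401 had a log2 fold change of −0.68 (edgeR, adjusted p = 0.249). Without msCol12 the number was 37, of which 22 were among the 38. Counts were also simulated for 10000 windows drawn from the whole genome, with the same dispersion for every window. There this comparison recovered 10% of 2-fold changes, against 99% for epiHybrids against epiRILs. This setting was not made for the abundance and spread of the rDNA windows, so the 10% does not give their power. Windows that did not pass are not shown to equal msCol.

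In the segment shares, 7 of 16 segments were lower in epiRILs than in msCol. The chromosome 2 25S side had 43130, 52052 and 72590 CPM as lowest, median and highest in epiRILs, 74787 CPM in msCol12 and 92829 CPM in msCol16, without overlap (log2 difference −0.65, exact permutation p = 0.00142, adjusted p = 0.0152, below both in 36 of 36). The partial copy had 1067, 1667 and 3062 CPM in epiRILs, 3976 CPM in msCol12 and 3028 CPM in msCol16 (log2 difference −1.07, exact permutation p = 0.00284, adjusted p = 0.0152, below both in 35 of 36). With either msCol library left out, 0 of 16 segments passed, since the smallest p is then 0.027.

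For epiHybrids against the MPV, which uses the same msCol libraries, 32 of the 138 windows passed (23.2%, against 1.08% of all), and 32 of 32 were lower, while 0 were higher (0.33% and 0.749% of all windows passed as lower and higher). They lay on the 25S sides (7 of 20 and 8 of 19), in 18S (6 of 9 in each copy) and in 5 other windows. Here too, matching windows can count the same reads, so the 32 are not all separate results. Without msCol16, 2 windows passed, 1 of them among the 32. At 9001 on the chromosome 2 25S side, epiHybrids had 1826, 2287 and 2997 CPM, epiRILs 1767, 2372 and 3392 CPM, msCol12 3027 CPM and msCol16 3862 CPM. The log2 fold change to the MPV there was −0.49 ± 0.09 (SE, edgeR, adjusted p = 0.000175), with 36 of 36 epiHybrids below both msCol libraries. The values for 9401 and for 14201401 on the chromosome 3 25S side were −0.6 ± 0.10 and −0.47 ± 0.08 (SE, edgeR, adjusted p = 0.00015 and 0.000156). At 14201401 msCol12 had 9110 CPM, inside the epiHybrid range of 7735 to 11419 CPM (median 9022) and the epiRIL range of 8160 to 12105 CPM (median 9735), and msCol16 had 16378.5 CPM, above all of both. There 19 of 36 epiHybrids lay below both msCol libraries. Without msCol16 the log2 fold change to the MPV was −0.35 at 9401 and −0.03 at 14201401 (edgeR, adjusted p = 0.309 and 0.984).

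Families were compared next, to see how far an epiHybrid resembled its own father in the rDNA. Over the 36 families the rDNA shares of fathers and epiHybrids had a Pearson r of 0.3 (permutation p = 0.0804, adjusted p = 0.234 over 3 correlations) and a Spearman rho of 0.2 (permutation p = 0.24). Without the 2 fathers farthest from the median, r was 0.11 (permutation p = 0.529). The rDNA share was also set against the share of windows over tRNA, snRNA and snoRNA genes, other abundant structural RNAs. Here r was −0.24 in epiHybrids (permutation p = 0.156, adjusted p = 0.234, rho −0.21 with p = 0.225) and 0.14 in epiRILs (permutation p = 0.401, adjusted p = 0.401, rho 0.15 with p = 0.37). Without the 2 libraries farthest from the median these were −0.2 and 0.19. None of the 3 correlations passed, but with the share taken over rDNA windows outside annotated rRNA genes, the r of fathers and epiHybrids was 0.42 (permutation test, adjusted p = 0.0334).

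Window by window, and as a description across windows of the same 72 libraries, the median r between fathers and epiHybrids was 0.3 over the rDNA windows and 0.23 over all tested windows. Values over 0.6 occurred in 15 of the 138 rDNA windows (10.9%, against 14.6% of all). They were 10 of 14 in the flank after the chromosome 3 copy, 3 of 14 in the chromosome 2 spacer before 18S and 2 of 15 in the partial copy, and none in the windows of 18S, ITS1, 5.8S and the 25S side. The median r was 0.75 in the flank after the chromosome 3 copy and 0.17 on the chromosome 3 25S side.

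Families 368 and 379 stood apart at the start of the spacer. In the SalI repeat window at 1001 shown above, epiRIL 368 had 192 CPM and epiRIL 379 had 155 CPM, whereas the other 34 epiRILs had 15.1, 26.2 and 46.1 CPM as lowest, median and highest. Their epiHybrids had 55.6 and 55.9 CPM, the other 34 epiHybrids 20.4, 27.5 and 44.6 CPM, msCol12 43.7 CPM and msCol16 27.0 CPM. Both epiRILs lay above all other epiRILs, and both epiHybrids above all other epiHybrids with a smaller distance. The same 2 epiRILs were above the other 34 in 9 of the 138 rDNA windows tested (6.52%, against 0.254% of all 174612 tested windows). All 9 lay at the start of the spacer in either copy or in the first part of the partial copy. These stretches match each other. The partial copy from 14191660 to 14192808 matches 14194324 to 14195473 at 99.739% identity, and the copies align from 1001 and 14194948 on. The 9 windows can thus count the same reads and are not 9 separate cases, so the 2 percentages do not measure an enrichment. Their epiHybrids were both above the other 34 epiHybrids at 1001 and 14191801 only, and in the rest of these windows 1 to 10 other epiHybrids exceeded the lower of both. These families were singled out after their values were seen, so no test was made.

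In the partial copy, at 14192001, epiRILs 368 and 379 had 345 and 309 CPM and no other epiRIL exceeded 152 CPM, while their epiHybrids had 130 and 153 CPM and the highest other epiHybrid 162 CPM. The number of windows in which both were more than 3-fold above every other epiRIL, at more than 5 CPM, was 3 in the whole genome, and 3 of these 3 were rDNA windows. These were 1001, 14192401 and 14195201, and 14192001 was not among them. At 14192401 both had 11.9 and 11.1 CPM against at most 3.08 CPM, and at 14195201 13.0 and 11.1 CPM against at most 3.58 CPM. The families had been singled out for their values in this sequence, so the count is a description. Their rDNA share as a whole was ordinary, with ranks 22 and 11 of 36 from the highest, at 25.9% and 27.8%. The plot of fathers against epiHybrids shows both families far to the right at 1001 and 14192001 but inside the cloud at 14202001.

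**Figure D5:**
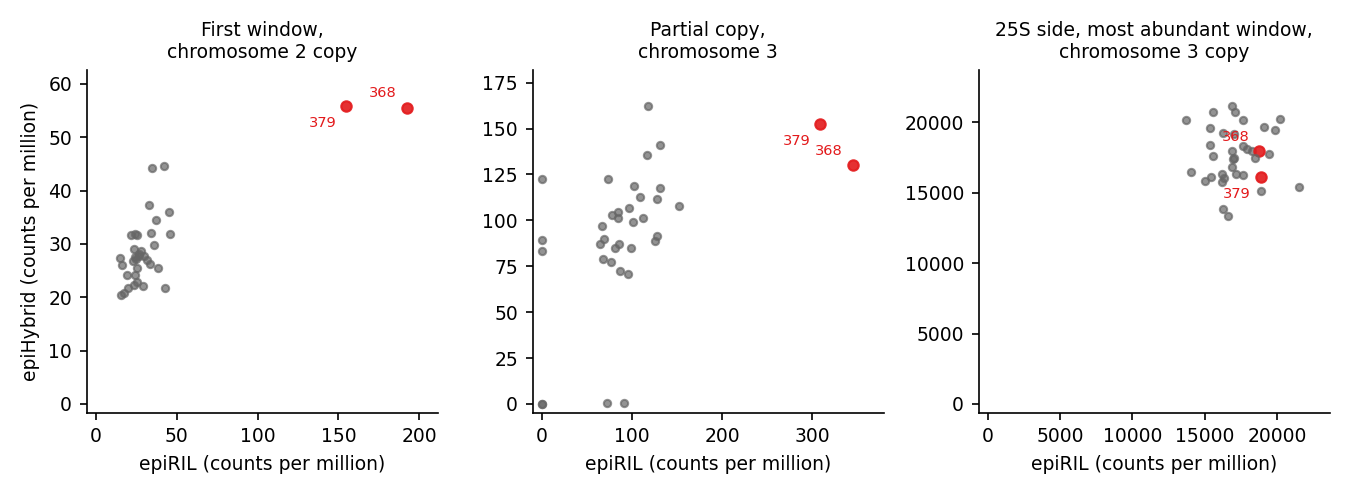
CPM in the epiHybrid (vertical axis) against its epiRIL father (horizontal axis), both from 0, with 1 point per family (n = 36), for the window at 1001 on chromosome 2 (left), at 14192001 in the partial copy (middle) and at 14202001 on the 25S side (right). Families 368 and 379 are in red. They stand apart at 1001 (192 and 155 CPM in the epiRILs) and at 14192001, where 9 libraries near 0 also show as points on the axes, and not at 14202001.

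In the partial copy some libraries were near 0. At 14192001 the libraries of epiRILs 50, 54, 334, 462 and 467 and of epiHybrids 50, 266, 462 and 579 had between 0.115 and 0.241 CPM. The other 63 epiRIL and epiHybrid libraries had between 64.2 and 345 CPM, and msCol12 and msCol16 had 186 and 104 CPM. No library lay between, and in 2 of the 7 families concerned, 50 and 462, father and epiHybrid were both low. The neighbouring windows at 14191801 and 14192201 were split the same way, at 0.535 to 1.33 against 18.6 to 166 CPM and at 0.306 to 1.28 against 13.7 to 77.3 CPM. These 3 windows were the only ones of the genome in which all 63 other libraries were above 1 CPM and above 2 times the highest of the 9.

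A window near the end of the partial copy had a split in the opposite direction, but at far lower levels. At 14194601 the same 9 libraries had between 0.0381 and 0.315 CPM and the other 63 had 0. The stretch from 14191660 to 14192808 matches that from 14194324 to 14195473 at 99.739% identity over 1150 bp, which covers all 4 windows. The tables of the other contexts count the same libraries over the same windows, so they are no independent check of the split. At 14192001 the 9 libraries had at most 0.467 CPM in the CHG table and 0.338 CPM in the CG table. The other 63 had at least 95.3 and 89.5 CPM. The libraries were grouped here by these values, so the split is a description, and its origin was not tested.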

How the data were processed

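Total RNA was extracted (miRNeasy) from pooled rosettes of 36 epiHybrids, 36 epiRILs and 2 msCol lines, and small RNA libraries with molecular identifiers were sequenced on DNBSEQ at BGI. The authors aligned reads to TAIR10 with ShortStack, at its default settings and without its miRNA search, and deposited raw counts of reads per 200-bp region at 50-bp steps, in 1 table for each of the CG, CHG and CHH contexts, for regions with at least 10 cytosines of that context. Reads with several matches were thus placed by the defaults of the ShortStack version used. That version and the use of the molecular identifiers are not given in the sources used here. The deposited counts hold all read lengths.

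Only windows that do not overlap were used, except for the chromosome 3 partners of matched pairs. The rDNA share is the percentage of a library's counts in the rDNA windows, and CPM are counts per 1000000 of the same total. Group differences of log2 shares were tested by two-sided sign-flip permutation within families (100000 resamples) or by exact permutation against msCol, with Benjamini-Hochberg adjustment over 4 comparisons, 16 segments or 3 correlations. Window tests covered those averaging 2 counts or more per library and used edgeR 4.0.16 (quasi-likelihood, TMM, limma 3.58.1, R 4.3.3), with the family as a block for epiHybrids against epiRILs, at an adjusted p of 0.05 over all windows. Families pair an epiHybrid with its father by descent, as the labels number them. DESeq2 1.42.0 was an alternative. The tests were tested on simulated data, with 200 of 10000 windows changed 2-fold, and recovered 99%, 10% and 81% of them for epiHybrids against epiRILs, epiRILs against msCol and epiHybrids against the mid-parent value. Sequences came from RefSeq TAIR10.1, copies were aligned with blastn 2.17.0, and unique sequence was counted in 24-base words. Named windows were the 3 with the largest abundance in each copy, the highest of each segment, and the 3 with the smallest adjusted p in each direction of each comparison. Windows at 1001, 1801, 14192001, 14192401, 14193801, 14194601 and 14195201, single-base windows, and families 102, 368 and 379 were chosen after their values were seen. The members and lists were chosen with earlier results of these data known.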

Additional observations from a re-analysis of the deposited data

How the results depend on the processing

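The difference in rDNA share between epiHybrids and epiRILs, −0.02 on the log2 scale, changed sign without passing the test in the CHG table (0.013), the CG table (0.0039), the chromosome 2 copy alone (0.0013), all spacer segments (0.0301) and the spacer windows clear of 18S and 25S sequence (0.0454). The last 2 settings were chosen after seeing the data. In those clear spacer windows the differences to msCol no longer passed, at −0.61 for epiRILs and −0.56 for epiHybrids. With 1 msCol library left out they ranged from −0.65 to −0.22 for epiRILs and from −0.67 to −0.23 for epiHybrids, and the divergence from the MPV from −22.8% to −8.35%. The correlation of fathers and epiHybrids was 0.42 in windows outside annotated rRNA genes, which include both 25S sides. It passed the threshold there (permutation test, adjusted p = 0.0334) and in none of the other 12 alternative settings. The spacer part of rDNA counts differed by −0.0147 percentage points when windows started at phase 51.

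Families were the pairs of the main tests. With no replicate block, 1 segment and 5 windows passed for epiHybrids against epiRILs, and the pairing changed no other call on the shares. DESeq2 with no replicate block called 7 windows. With TMM effective library sizes 6 segments passed. Against msCol, 21 windows passed with scaling by library size only. Leaving out 1 msCol library gave 10 to 37 windows for epiRILs against msCol, 2 to 47 for epiHybrids against the MPV, and 0 to 0 segments. Without msCol16, the log2 difference of epiRILs to msCol became positive, without passing, in ITS1 of chromosome 2 (−1.23 without msCol12 and 0.0898 without msCol16) and of chromosome 3 (−1.005 and 0.15), and in the windows at 5601 (−1.61 and 0.25), 5801 (−1.4 and 0.12), 14201401 (−1.16 and 0.24) and 14202001 (−1.12 and 0.29). The same held against the MPV at 5201 (−0.51 and 0.0093) and 14199601 (−0.95 and 0.11). The cause was not tested. The msCol comparisons rest on 2 libraries.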
